A study of Chelonia mydas with 15 samples.

Results

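OTX1, OTX2, IRX1, IRX3, RAX, SIX3, PAX6, NKX2-2, NKX6-1 and LHX2 are homeobox transcription factor genes that divide the neural plate into regions. They were taken by name from a table of RNA-sequencing counts for whole embryos of the green sea turtle, Chelonia mydas. All 10 were found among the 23730 named genes, and 9 of the 10 were among the 16639 genes with enough counts to be tested. LHX2 was not. The hypoxia group was 5 embryos from eggs sealed under nitrogen, below 8 mmHg oxygen, for the 36 h after laying. The normoxia group was 5 embryos from eggs held for 36 h in sand at about 159 mmHg, and the freshly laid group was 5 embryos removed within an hour of laying. The embryos of this species stop developing in the oviduct and resume after laying, and the design asks what happens when oxygen stays low. The labels name no female or clutch for any egg, so p-values measure the spread between these samples only. Each library holds all the tissue of an embryo as dissected, and fewer cells of a type cannot be told apart from less RNA per cell.

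The neural plate is the sheet of dorsal ectoderm that rolls up into the brain and spinal cord. As known from mouse, chick, frog and fish, OTX factors mark its future forebrain and midbrain, SIX3, RAX, PAX6 and LHX2 act in the forebrain and eye field, and Iroquois (IRX) factors act further back. Across the neural tube from belly to back, Sonic hedgehog induces NKX2-2 and NKX6-1 ventrally, and PAX6 and IRX3 lie above the NKX2-2 domain. In mouse and chick, PAX6 and NKX2-2 restrict each other. Several of these genes also act elsewhere, OTX2 in the epiblast and anterior endoderm, and PAX6, NKX2-2 and NKX6-1 in the endocrine pancreas.

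Depth was 17.6 to 20.8 M counts per hypoxia library, 18.3 to 26.8 M per normoxia library and 14.5 to 21.8 M per freshly laid library. Levels are given as CPM, counts of a gene per M counts of its library after TMM scaling for composition, and changes as log2 fold changes ± SE from 1 edgeR quasi-likelihood fit of all libraries. A gene was called when its Benjamini-Hochberg adjusted p over all tested genes was under 0.05. The TMM factors lay lower in hypoxia, from 0.785 to 0.904, than in normoxia (1.03 to 1.14) and freshly laid embryos (1.00 to 1.11). Without them, the all-gene median of the log2 fold change shifted by -0.323 for hypoxia against normoxia and by -0.312 for hypoxia against freshly laid. Changes in hypoxia are therefore relative to this scaling. Summed over the 13 pan-neural genes found, levels were 447 to 1333 CPM in hypoxia, 890 to 1167 CPM in normoxia and 1052 to 1532 CPM in freshly laid embryos. CDH2 (266, 335 and 651 CPM in that order of groups) and FABP7 (175, 330 and 69.3 CPM) made up much of these sums. SOX2 had only 4.37, 5.57 and 4.98 CPM. SOX3 had 60.2 to 136 CPM in hypoxia, 44.1 to 81.4 CPM in normoxia and 112.5 to 196 CPM in freshly laid embryos, so its transcripts were present in every library. The median pan-neural sum was 699.5 CPM in hypoxia, 1082 CPM in normoxia and 1217 CPM in freshly laid embryos. Since the sums were not lower before incubation, they are not read as an amount of neural plate.

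The 10 patterning genes together had 41.0 to 62.9 CPM in hypoxia and 31.3 to 61.0 CPM in normoxia, ranges that overlapped, against 1.38 to 18.5 CPM in freshly laid embryos. At 36 h the groups differed in which genes made up that sum. RAX was 27.4-fold higher in hypoxia than in normoxia, while IRX1, OTX1 and NKX2-2 were lower. OTX2, IRX3, SIX3 and NKX6-1 were not called between the incubated groups. Of the 9 tested genes, 1 was higher, 3 were lower and 5 were not called in hypoxia against normoxia. RAX, with 38 counts in normoxia, passed the count filter through its hypoxia libraries. NKX2-2, with 18 counts in hypoxia, passed it through its normoxia libraries. A call in the opposite direction was hardly possible for these genes. Over all tested genes 25.7% were higher and 23.2% lower, 48.8% in either direction, so the share called here was near the background. With total counts alone, the all-gene calls were 2674 higher and 5600 lower, in place of 4268 and 3855.

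**Figure D1:**
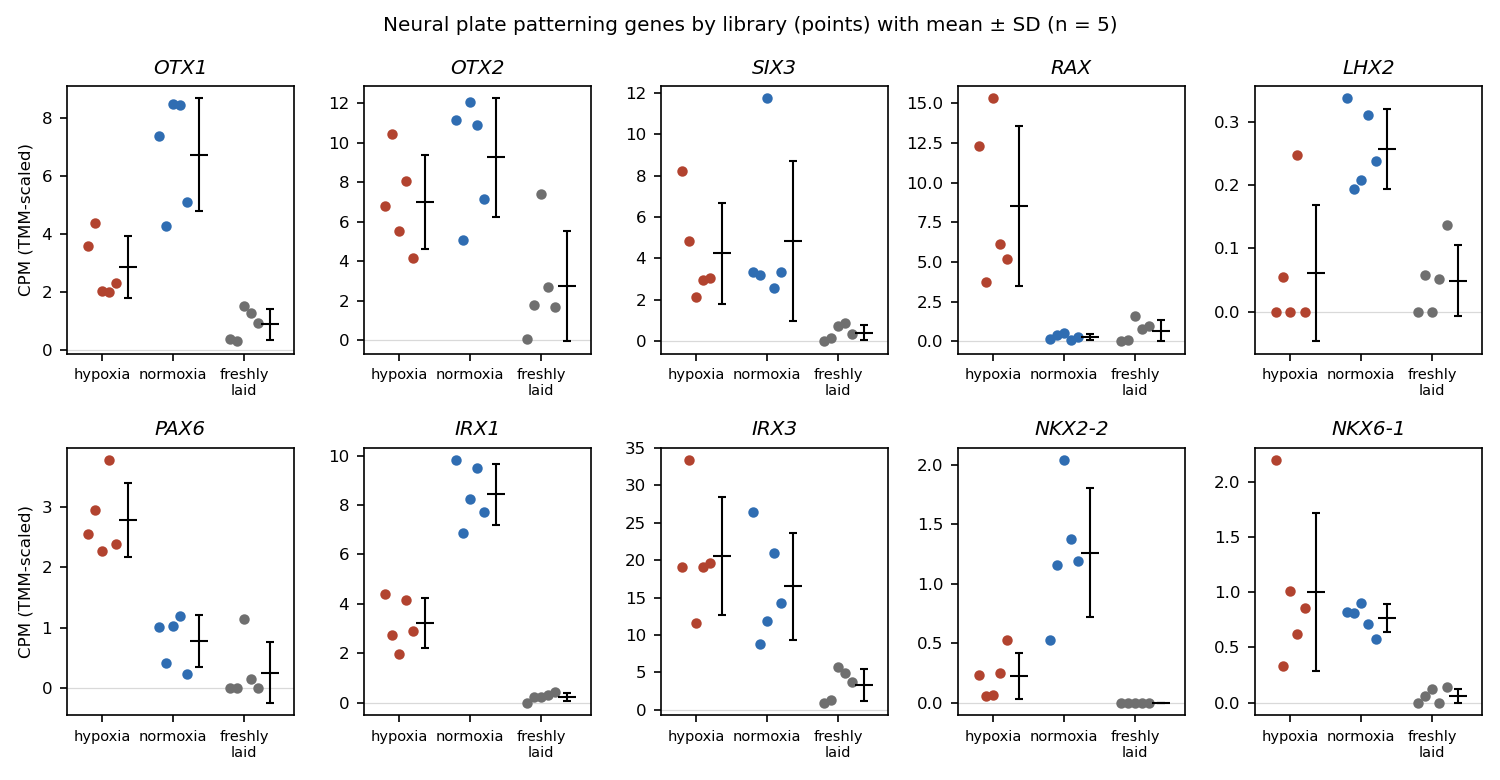
CPM of each gene (vertical axis, linear, its own range per panel) in hypoxia, normoxia and freshly laid libraries. Points are libraries in replicate order, and the bar beside them is the mean ± SD (n = 5). RAX and PAX6 lie higher in every hypoxia library than in any normoxia library, and IRX1 and NKX2-2 lie lower.

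OTX1 and OTX2 encode closely related homeodomain proteins of the forebrain and midbrain. OTX1 had 3.59, 4.37, 2.02, 1.98 and 2.32 CPM in hypoxia, against 7.38, 4.29, 8.52, 8.47 and 5.10 CPM in normoxia and 0.377, 0.287, 1.51, 1.28 and 0.918 CPM in freshly laid embryos. Only hypoxia replicate 2, at 4.37 CPM, reached the lowest normoxia library, and every incubated library lay above every freshly laid one. OTX1 fell by 1.24 ± 0.42 on the log2 scale in hypoxia against normoxia (edgeR adjusted p = 0.0226). The call rested on few libraries, since the adjusted p was 0.0559 without normoxia replicate 3, 0.0543 without normoxia replicate 4 and 0.0521 without hypoxia replicate 4. It was higher than in freshly laid embryos both in hypoxia (1.70 ± 0.44, edgeR adjusted p = 0.00558) and in normoxia (2.94 ± 0.46, edgeR adjusted p = 0.000192).

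OTX2 is required for the head in mouse. It had 6.77, 10.4, 5.55, 8.06 and 4.17 CPM in hypoxia, against 11.1, 5.07, 12.1, 10.9 and 7.15 CPM in normoxia and 0.0628, 1.78, 7.42, 2.71 and 1.65 CPM in freshly laid embryos. The 3 groups overlapped, because freshly laid replicate 3 was as high as the incubated libraries while freshly laid replicate 1 held a single OTX2 count. The log2 fold change was -0.40 ± 0.59 for hypoxia against normoxia (edgeR adjusted p = 0.592) and 1.36 ± 0.60 for hypoxia against freshly laid (edgeR adjusted p = 0.0813). In normoxia against freshly laid it was 1.76 ± 0.61 and was called (edgeR adjusted p = 0.0350). That call ended when any of freshly laid replicates 2, 4 and 5 or normoxia replicates 1, 3 and 4 was left out (edgeR adjusted p from 0.0596 to 0.0754). Without freshly laid replicate 3, OTX2 was called in both comparisons with freshly laid embryos, at 2.16 for hypoxia (edgeR adjusted p = 0.00697) and 2.56 for normoxia (edgeR adjusted p = 0.00399).

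Freshly laid embryos also differed in markers of the anterior mesendoderm and organiser, tissues that express OTX2 and that lie under or in front of the neural plate. The 10 genes of that list other than OTX2 and SIX3, among them GSC, HHEX and CER1, summed to 211 to 468 CPM in hypoxia and 227 to 332 CPM in normoxia. In freshly laid embryos they summed to 24.6, 211, 913, 475 and 522 CPM, lowest in replicate 1 and highest in replicate 3. No gene of the list was at 0 in any group. The sum of the 10 patterning genes was also lowest in freshly laid replicate 1 (1.38 CPM) and highest in replicate 3 (18.5 CPM). The part of these tissues or of stage in the OTX2 values was not tested.

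SIX3, RAX, LHX2 and PAX6 act in the eye field and forebrain. RAX, which the vertebrate eye cannot form without, had 12.3, 3.72, 15.3, 6.14 and 5.17 CPM in hypoxia, against 0.145, 0.425, 0.554, 0.0887 and 0.286 CPM in normoxia and 0, 0.0575, 1.57, 0.767 and 0.964 CPM in freshly laid embryos. Every hypoxia library lay above every other library, and the normoxia and freshly laid libraries overlapped. The counts behind these values were 701 in hypoxia, 38 in normoxia and 63 in freshly laid embryos, summed over 5 libraries each. RAX was higher in hypoxia than in normoxia by 4.78 ± 0.82 on the log2 scale (edgeR adjusted p = 0.000137) and higher than in freshly laid embryos by 3.65 ± 0.78 (edgeR adjusted p = 0.00128). In normoxia against freshly laid its log2 fold change was -1.13 ± 0.78 which missed the threshold (edgeR adjusted p = 0.280).

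SIX3 represses posterior signals in the forebrain of mouse and fish. It had 8.22, 4.87, 2.15, 2.98 and 3.05 CPM in hypoxia, against 3.33, 3.21, 11.7, 2.57 and 3.34 CPM in normoxia and 0, 0.172, 0.724, 0.869 and 0.367 CPM in freshly laid embryos. The incubated groups overlapped, each with 1 library well above its others. For hypoxia against normoxia the log2 fold change was -0.19 ± 0.61 (edgeR adjusted p = 0.821), and without normoxia replicate 3 it was 0.45. SIX3 rose against freshly laid embryos in hypoxia (3.29 ± 0.69, edgeR adjusted p = 0.00118) and in normoxia (3.47 ± 0.69, edgeR adjusted p = 0.00134), the normoxia value being 2.84 without normoxia replicate 3.

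PAX6, a paired-box and homeobox factor of the eye, forebrain and neural tube, had 2.55, 2.95, 2.27, 3.78 and 2.39 CPM in hypoxia, against 1.01, 0.425, 1.04, 1.20 and 0.238 CPM in normoxia and 0, 0, 1.15, 0.153 and 0 CPM in freshly laid embryos. Every hypoxia library lay above every normoxia and freshly laid library. Even so, the log2 fold change of 1.82 ± 0.85 for hypoxia against normoxia missed the threshold (edgeR adjusted p = 0.0853). It passed when the fit held only the 10 hypoxia and normoxia libraries (1.80, edgeR adjusted p = 0.00565) and with limma-voom (1.99, limma adjusted p = 0.00577). PAX6 rose in hypoxia against freshly laid by 3.42 ± 0.94 (edgeR adjusted p = 0.00771). In normoxia against freshly laid the log2 fold change was 1.60 ± 0.91 and missed the threshold (edgeR adjusted p = 0.192). Without freshly laid replicate 3, which held 19 of the 22 freshly laid counts, the values were 5.92 for hypoxia and 4.10 for normoxia, and the normoxia change was then called (edgeR adjusted p = 0.00264).

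PAX6, NKX2-2 and NKX6-1 also mark endocrine pancreas, and the 10 genes of a pancreas and endocrine endoderm list summed to 4.80 to 19.9 CPM in hypoxia, 3.05 to 8.93 CPM in normoxia and 0.518 to 5.13 CPM in freshly laid embryos. Of the 4 tested genes of that list, 2 were higher in hypoxia than in normoxia and the other 2 were not called. Over all tested genes 25.7% were higher and 23.2% lower in that comparison. PDX1, the pancreatic homeobox factor, had 2.97 ± 1.96 CPM in hypoxia, 0.126 ± 0.154 CPM in normoxia and 0.320 ± 0.416 CPM in freshly laid embryos (SD, n = 5 each). INSM1, a zinc finger factor of endocrine and neural cells, had 3.61 ± 3.27 CPM in hypoxia, 0.320 ± 0.277 CPM in normoxia and 0.379 ± 0.359 CPM in freshly laid embryos. ISL1 (0.936 CPM in hypoxia, 2.59 CPM in normoxia) and GCG (0.606 CPM in hypoxia, 1.54 CPM in normoxia), the tested genes not called, had negative log2 fold changes of -1.46 ± 0.88 and -1.35 ± 1.12 (edgeR adjusted p = 0.180 and 0.333). NEUROD1 was without a count in normoxia and in freshly laid embryos, and no listed gene was at 0 in hypoxia. The part of such cells in the PAX6 values was not tested. In hypoxia against normoxia NKX2-2 was lower and NKX6-1 was not called.

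LHX2, a LIM-homeobox factor of the eye field and cortex, had 0, 0.0547, 0, 0.248 and 0 CPM in hypoxia, against 0.338, 0.193, 0.208, 0.310 and 0.238 CPM in normoxia and 0, 0.0575, 0, 0.0511 and 0.138 CPM in freshly laid embryos. These values stand on 5 counts in hypoxia, 30 in normoxia and 5 in freshly laid embryos. The normoxia libraries all lay above the freshly laid ones, and hypoxia replicate 4, with 4 of the 5 hypoxia counts, lay within the normoxia range. By summed counts relative to library size, LHX2 in hypoxia was 0.240 of its normoxia level (95% interval 0.0727 to 0.625), and in normoxia it was 4.60 times its freshly laid level (1.77 to 15.2). Intervals and floors cover counting error only. When the filter on low counts was dropped, LHX2 was not called for hypoxia against normoxia (edgeR adjusted p = 0.133) or for normoxia against freshly laid (edgeR adjusted p = 0.128).

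The Iroquois genes IRX1 and IRX3 encode homeodomain factors of the midbrain, hindbrain and intermediate neural tube. IRX1 had 4.40, 2.73, 1.96, 4.15 and 2.92 CPM in hypoxia, against 9.84, 6.88, 8.24, 9.49 and 7.72 CPM in normoxia and 0, 0.230, 0.241, 0.307 and 0.459 CPM in freshly laid embryos. The 3 groups did not overlap, with hypoxia between the other two. IRX1 fell by 1.38 ± 0.41 on the log2 scale in hypoxia against normoxia (edgeR adjusted p = 0.0104). Against freshly laid embryos it rose by 3.64 ± 0.48 in hypoxia (edgeR adjusted p = 2.07e-05) and by 5.02 ± 0.50 in normoxia (edgeR adjusted p = 4.79e-06).

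IRX3 had 19.1, 33.4, 11.6, 19.04 and 19.6 CPM in hypoxia, against 26.5, 8.86, 11.9, 20.97 and 14.3 CPM in normoxia and 0.942, 1.32, 5.79, 4.91 and 3.67 CPM in freshly laid embryos. The incubated groups overlapped over most of their range. For hypoxia against normoxia the log2 fold change was 0.32 ± 0.42 (edgeR adjusted p = 0.557), and with total counts only it was -0.01. IRX3 rose against freshly laid embryos by 2.62 ± 0.46 in hypoxia (edgeR adjusted p = 0.000238) and by 2.30 ± 0.45 in normoxia (edgeR adjusted p = 0.00114).

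Iroquois genes of vertebrates lie in clusters, and the turtle annotation places IRX1 next to IRX2, 866 kb away with 0 annotated genes between them, and IRX3 on the same sequence as IRX5, 558 kb away with 3 genes between. IRX2 had 2.08 ± 0.678 CPM in hypoxia, 8.54 ± 2.55 CPM in normoxia and 0.122 ± 0.115 CPM in freshly laid embryos, and fell by 2.04 ± 0.48 in hypoxia against normoxia (edgeR adjusted p = 0.00196). IRX5 had 7.36 ± 4.84 CPM in hypoxia, 7.13 ± 3.16 CPM in normoxia and 2.26 ± 0.890 CPM in freshly laid embryos, and was not called between hypoxia and normoxia (0.05 ± 0.43, edgeR adjusted p = 0.936). In that comparison IRX1 and IRX2 were thus called lower, and IRX3 and IRX5 were not called, which does not show that they behaved alike. IRX6, on the same sequence as IRX3 and IRX5, was not called either. Its log2 fold change was -1.31 ± 0.67 (edgeR adjusted p = 0.115). IRX4, on the same sequence as IRX1 and IRX2, was not tested, with 15 counts in hypoxia and 15 in normoxia.

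NKX2-2 and NKX6-1 are factors of ventral neural progenitors. NKX2-2 had 0.232, 0.0547, 0.0631, 0.248 and 0.530 CPM in hypoxia, against 0.530, 1.16, 2.04, 1.38 and 1.19 CPM in normoxia, and no count in any freshly laid library. The highest hypoxia and lowest normoxia libraries nearly met at 0.530 CPM, without overlap, on 18 counts in hypoxia and 156 in normoxia. NKX2-2 fell by 2.47 ± 0.68 on the log2 scale in hypoxia against normoxia (edgeR adjusted p = 0.00839). Over a floor of 3 counts for the freshly laid group, it was at least 6.63-fold higher in hypoxia (edgeR adjusted p = 0.00304) and at least 39.9-fold higher in normoxia (edgeR adjusted p = 0.000204).

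NKX6-1 had 2.20, 0.328, 1.01, 0.620 and 0.862 CPM in hypoxia, against 0.820, 0.812, 0.900, 0.710 and 0.572 CPM in normoxia and 0, 0.0575, 0.121, 0 and 0.138 CPM in freshly laid embryos. The hypoxia libraries spread to both sides of the normoxia libraries. The log2 fold change for hypoxia against normoxia was 0.39 ± 0.60 (edgeR adjusted p = 0.610), and it was -0.12 without hypoxia replicate 1. NKX6-1 rose against freshly laid embryos in hypoxia (3.83 ± 0.74, edgeR adjusted p = 0.000617) and in normoxia (3.44 ± 0.74, edgeR adjusted p = 0.00232), in each case over 6 freshly laid counts.

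**Figure D2:**
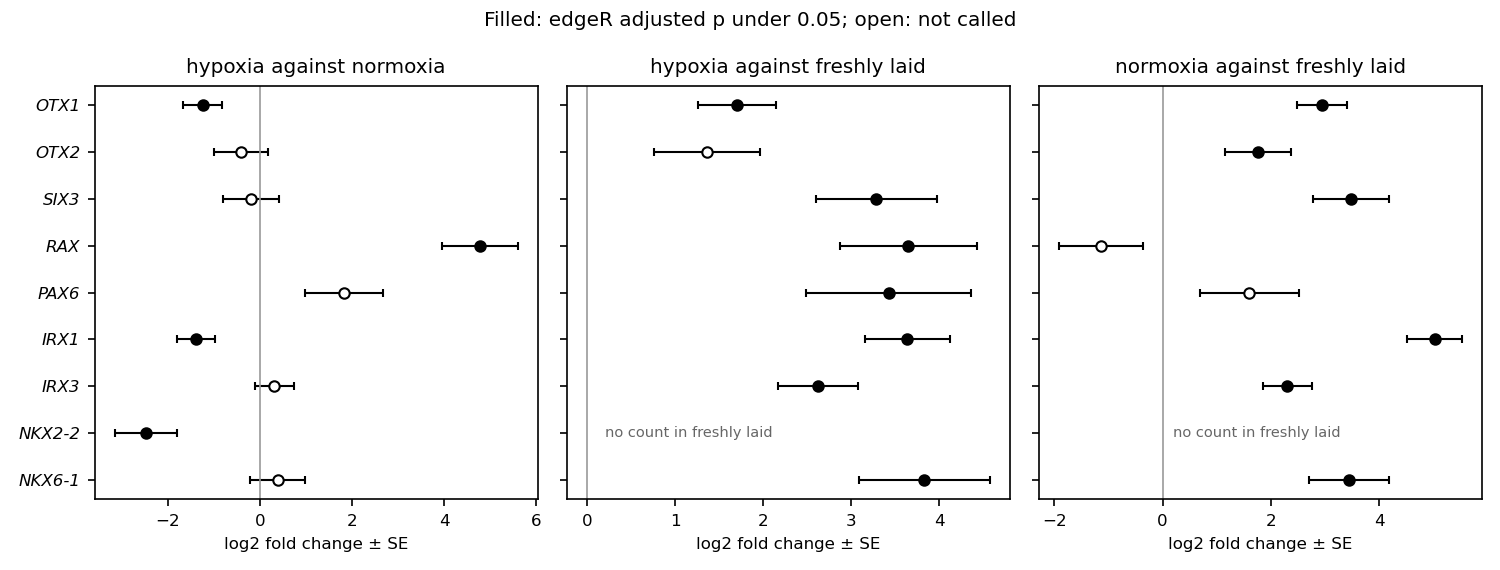
Log2 fold change ± SE (horizontal axis) of the 9 tested genes in each comparison, filled where the edgeR adjusted p is under 0.05. Between hypoxia and normoxia RAX is the filled point on the right and OTX1, IRX1 and NKX2-2 are those on the left; NKX2-2 has no point against freshly laid embryos, where it had no count.

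Against freshly laid embryos, 8 of the 9 tested genes were higher in hypoxia, 0 were lower and 1, OTX2, was not called, beside 20.9% higher and 19.4% lower over all tested genes (40.3% in either direction). With total counts alone, the all-gene calls in that comparison were 2088 higher and 5259 lower, in place of 3474 and 3227. In normoxia against freshly laid, 7 were higher, 0 lower and 2, RAX and PAX6, not called, beside 15.2% higher and 16.1% lower over all tested genes (31.2% in either direction). Median log2 fold changes of the tested genes were 3.42 for hypoxia and 2.94 for normoxia, beside 0.027 and -0.005 over all tested genes. Both comparisons use the same freshly laid libraries. NKX2-2, NKX6-1, PAX6, IRX1 and SIX3 had only 0, 6, 22, 24 and 40 freshly laid counts and passed the count filter through incubated libraries. A call as lower than freshly laid was hardly possible for these genes. RAX, with 63 freshly laid counts, passed the filter through its hypoxia libraries. The counts of higher calls, the absence of lower calls and the medians of the tested genes are limited by this. No excess over the background is read from them.

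Counting all 10 genes, every hypoxia library lay above every freshly laid one for 8, and every normoxia library did so for 7, LHX2 among them. Over all tested genes the groups lay apart in that direction for 12.2% and 12%. The low freshly laid counts of most of the 10 limit this comparison as well. Between hypoxia and normoxia, 2 genes lay higher without overlap (RAX and PAX6) and 2 lower (IRX1 and NKX2-2), beside 18% and 18.3% over all tested genes.

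Set against each other per kb of exon, the genes kept a different order in each group. In hypoxia IRX3 led with 9.56 ± 3.68 CPM per kb, followed by RAX (7.37 ± 4.33) and OTX2 (4.83 ± 1.66). IRX3 exceeded RAX in 3 of the 5 hypoxia libraries and RAX exceeded OTX2 in 3, so these neighbours did not differ beyond their spread. OTX1, SIX3, IRX1 and PAX6 followed between 1.65 and 1.03 CPM per kb, and NKX6-1, NKX2-2 and LHX2 lay below 1. In normoxia IRX3 (7.68 ± 3.32 CPM per kb) and OTX2 (6.39 ± 2.07) led, with IRX3 higher in 4 of 5 libraries. IRX1 (3.89 ± 0.566) and OTX1 (3.89 ± 1.12) came level behind them, and RAX ranked ninth at 0.259 ± 0.167 CPM per kb. In freshly laid embryos OTX2 (1.88 ± 1.93 CPM per kb) and IRX3 (1.55 ± 0.998) led, OTX2 being higher in only 2 of 5 libraries. The median of all tested genes was 5.37 CPM per kb in hypoxia, 5.15 in normoxia and 5.40 in freshly laid embryos, so most of these factors lay below the median gene.

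**Figure D3:**
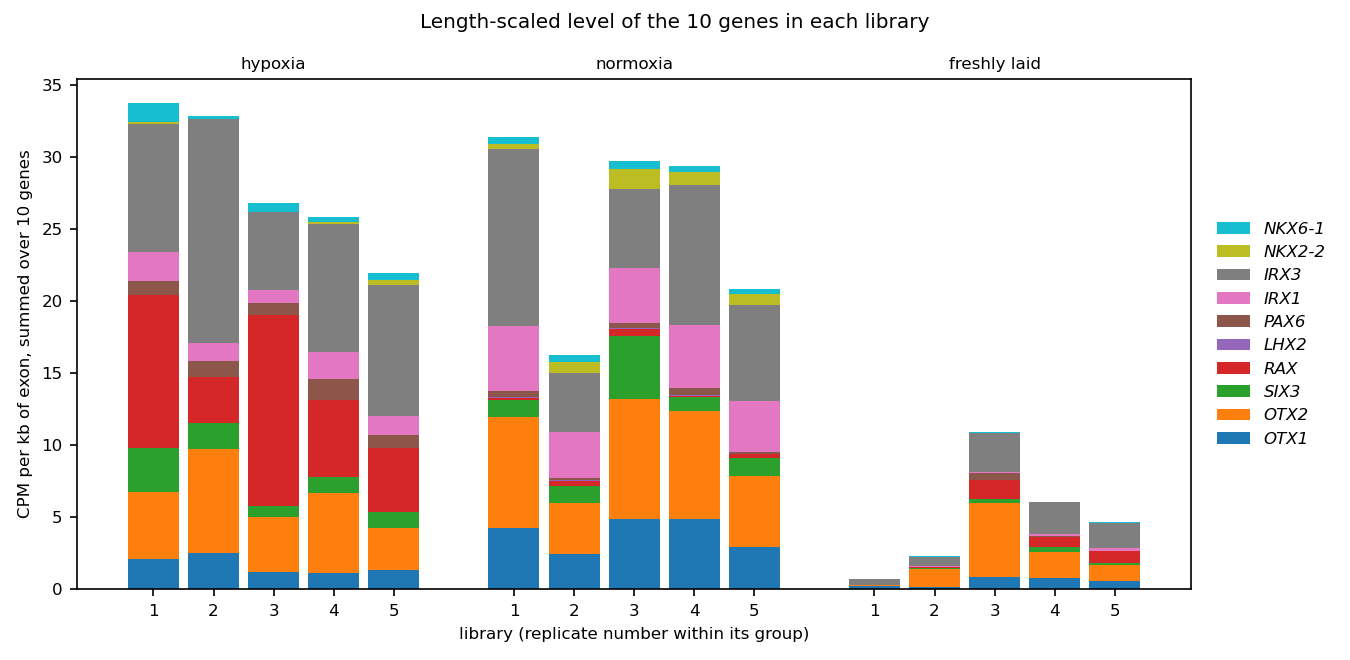
CPM per kb of exon of the 10 genes, stacked for each library (horizontal axis, replicates within hypoxia, normoxia and freshly laid). Hypoxia bars hold RAX as a large share, normoxia bars hold more OTX1 and IRX1, and freshly laid bars are shortest.

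Ratios between related genes within a library do not depend on how libraries are scaled. They are given as log2 ratios of counts, with 0.5 added to each count and with no test, since the pairs were chosen after the values of their genes were known. OTX1 over OTX2 was -1.29 ± 0.47 in hypoxia and -0.44 ± 0.14 in normoxia. IRX1 over IRX3 was -2.64 ± 0.60 in hypoxia and -0.87 ± 0.44 in normoxia. RAX over SIX3 was 0.96 ± 1.17 in hypoxia and -3.90 ± 0.72 in normoxia (SD, n = 5 each). In hypoxia 4 of 5 libraries held more RAX than SIX3 counts, and no normoxia library did. NKX2-2 over NKX6-1 was -2.11 ± 1.19 in hypoxia and 0.61 ± 0.72 in normoxia. In each pair the hypoxia and normoxia libraries did not overlap, but for NKX2-2 over NKX6-1 they nearly met. There the highest hypoxia ratio was -0.67 and the lowest normoxia ratio was -0.61. Each pair sets a gene called between these groups over a gene not called, so the separation adds little to those calls.

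**Figure D4:**
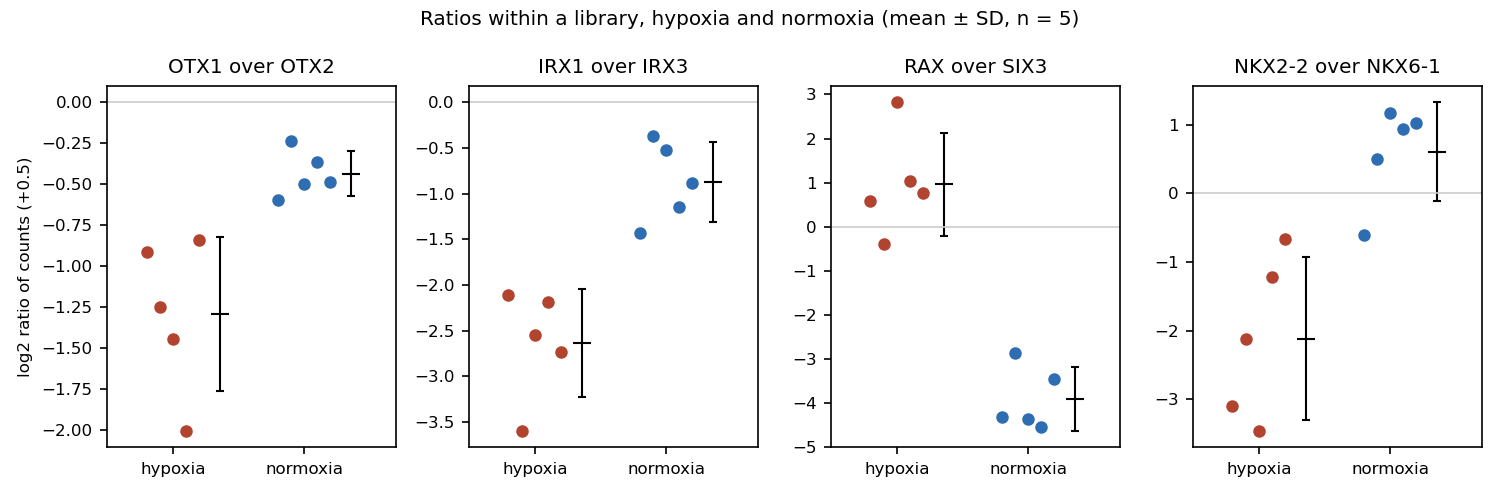
Log2 ratio of counts (vertical axis, 0.5 added) of 4 pairs of related genes in each hypoxia and normoxia library, with mean ± SD (n = 5). RAX over SIX3 averages 0.96 in hypoxia and -3.90 in normoxia, and the other 3 ratios lie lower in hypoxia.

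Other genes of neural patterning were counted from 6 lists. Together they held 94 genes other than the 10, of which 91 were found and 60 tested. In hypoxia against normoxia 7 of the 60 were higher, 15 lower and 38 not called, with a median log2 fold change of -0.47 beside 0.063 over all tested genes. Over all tested genes 25.7% were higher and 23.2% lower, so the share of lower calls was near the background and that of higher calls below it. The anterior neural plate and eye field list had 0 higher and 5 lower of 9 tested genes in that comparison. SFRP1, a secreted Wnt antagonist, had 14.4 CPM in hypoxia and 61.7 CPM in normoxia (-2.09 ± 0.32, edgeR adjusted p = 4.67e-05). SHISA2, a head gene first described in frog, where Shisa proteins hold back Wnt and FGF receptors, had 47.8 CPM in hypoxia and 100.1 CPM in normoxia, and the LIM-homeobox gene LHX5 had 9.55 CPM in hypoxia and 20.96 CPM in normoxia, and both fell. SHISA2 was highest in freshly laid embryos (133 CPM). RAX thus had the opposite call to SFRP1, SHISA2 and LHX5. The 4 tested genes of the list that were not called went both ways. Their log2 fold changes were 1.69 for FEZF1, 0.39 for FEZF2, 0.08 for LHX9 and -1.97 for NKX2-1. VAX1, an eye and forebrain factor, had no count in any library.

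The midbrain-hindbrain and hindbrain list had 1 higher and 3 lower of 10. FGF8, the signal of the midbrain-hindbrain boundary that is also made in the primitive streak and tail bud, was higher in hypoxia (6.20 CPM) than in normoxia (0.887 CPM), by 2.79 ± 0.70 (edgeR adjusted p = 0.00336). Freshly laid embryos had a mean of 5.97 CPM of FGF8, close to hypoxia, with libraries from 0.0628 to 9.51 CPM. GBX2, which opposes OTX2 at that boundary, was lower (0.447 CPM in hypoxia, 2.07 CPM in normoxia), a call lost without normoxia replicate 1 (edgeR adjusted p = 0.0690). MEIS1, a cofactor of HOX proteins, had 25.2 CPM in hypoxia and 60.6 CPM in normoxia and fell.

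The ventral and Hedgehog list had 1 higher and 2 lower of 10. GLI1, an activator and target of Hedgehog signalling, had 6.52 CPM in hypoxia and 0.949 CPM in normoxia (2.76 ± 0.39, edgeR adjusted p = 2.19e-05). GLI2, its main transducer, had 1.08 CPM in hypoxia and 10.02 CPM in normoxia (-3.20 ± 0.52, edgeR adjusted p = 8.44e-05). SHH had 1.16 CPM in hypoxia and 0.411 CPM in normoxia, and the receptor PTCH1, another target, 7.80 CPM in hypoxia and 12.6 CPM in normoxia. Neither was called (edgeR adjusted p = 0.0988 and 0.0992). FOXJ1, a factor of motile cilia, had 0.290 CPM in hypoxia and 2.74 CPM in normoxia and fell by 3.21 ± 0.91, and by 4.04 without hypoxia replicate 3.

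The intermediate and dorsal list had 1 higher and 3 lower of 11. LMX1A, a roof plate and floor plate factor, had 3.92 CPM in hypoxia and 0.181 CPM in normoxia (4.38 ± 0.77, edgeR adjusted p = 0.000170). ZIC1, a dorsal zinc finger factor, had 0.118 CPM in hypoxia and 3.91 CPM in normoxia (-4.96 ± 0.82, edgeR adjusted p = 0.000217). With 22 normoxia counts of LMX1A and 10 hypoxia counts of ZIC1, the opposite call was hardly possible for these genes. The pan-neural list had 3 higher and 2 lower of 12, among them MSI1, an RNA-binding protein of neural progenitors, at 28.7 CPM in hypoxia and 58.7 CPM in normoxia. GMNN, a replication licensing inhibitor that also promotes neural fate in frog, had 74.4 CPM in hypoxia and 125 CPM in normoxia and fell. ZNF521 had 40.2 CPM in hypoxia and 23.8 CPM in normoxia and rose, but was not called with total counts only (edgeR adjusted p = 0.0895). SOX3 was also higher, at 105 CPM in hypoxia and 56.4 CPM in normoxia (0.90 ± 0.24, edgeR adjusted p = 0.00463). So was NKX1-2, at 9.02 CPM in hypoxia and 2.97 CPM in normoxia (1.60 ± 0.57, edgeR adjusted p = 0.0273). Of 8 proneural and neuronal genes 1 was higher, NEUROG1, at 4.50 CPM in hypoxia and 1.16 CPM in normoxia. DCX (-1.44 ± 0.61) and the Notch ligand DLL3 (-1.09 ± 0.47) were not called (edgeR adjusted p = 0.0596 and 0.0660). Both passed as lower when libraries were scaled by totals alone (edgeR adjusted p = 0.0301 and 0.0261) and with DESeq2 (DESeq2 adjusted p = 0.0319 and 0.0332). They also passed with limma-voom (limma adjusted p = 0.00704 and 0.0200) and with the block of library numbers as a covariate (edgeR adjusted p = 0.0258 and 0.0417). DCX was also called without hypoxia replicate 4 (-2.48, edgeR adjusted p = 0.00134) and DLL3 without hypoxia replicate 3 (edgeR adjusted p = 0.0499).

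**Figure D5:**
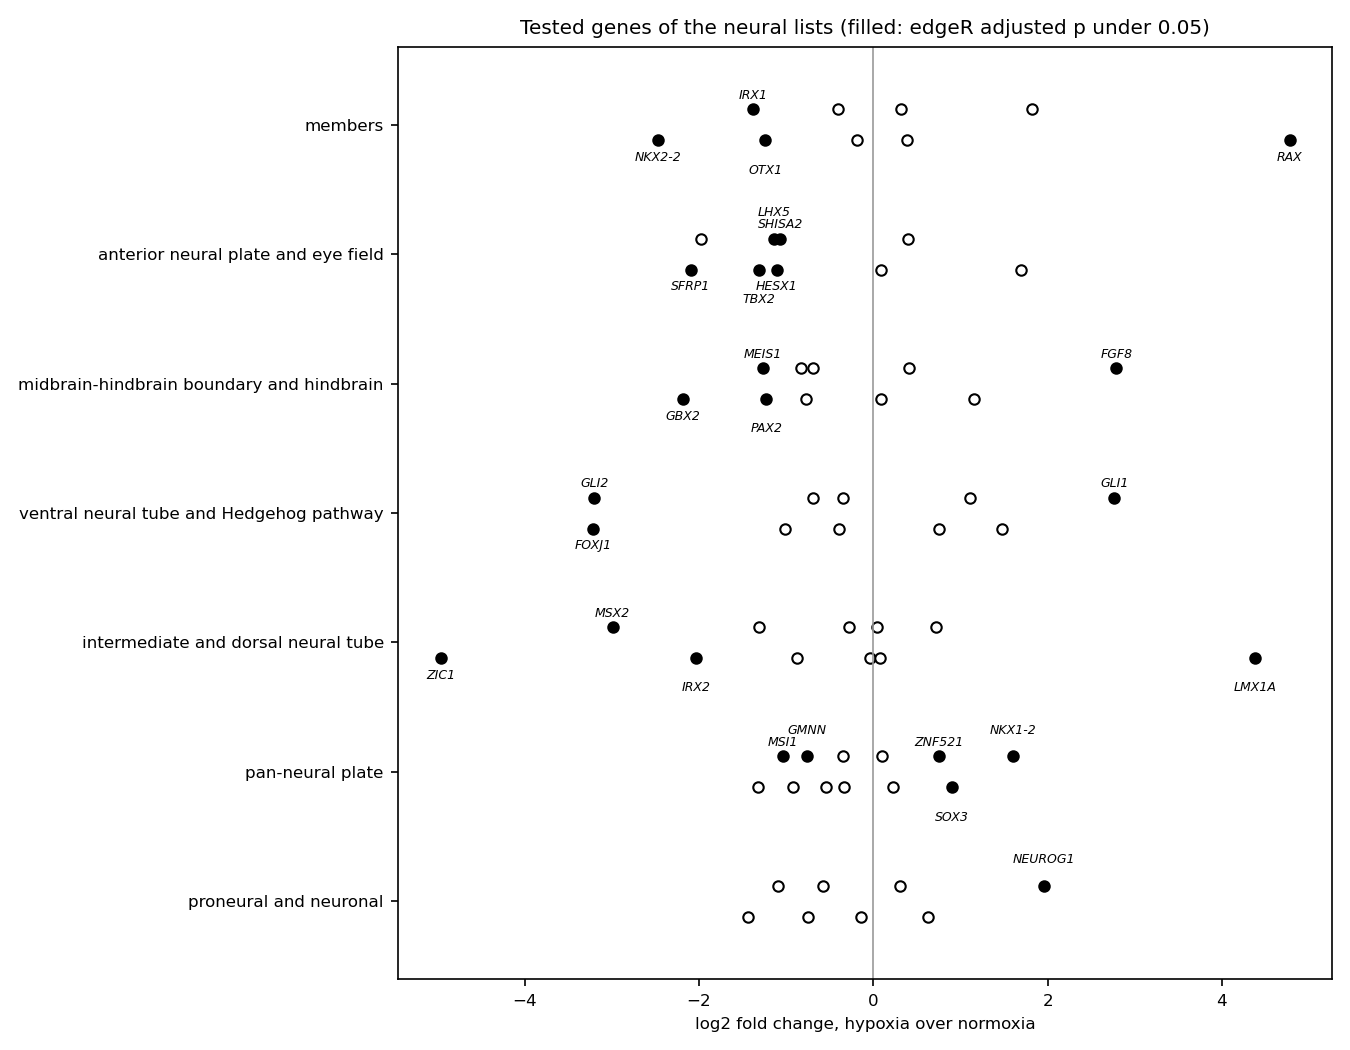
Log2 fold change of hypoxia over normoxia (horizontal axis) for the tested patterning genes and for 6 lists of other neural genes, filled and named where the edgeR adjusted p is under 0.05. All 5 called anterior genes lie left of 0, while RAX and LMX1A lie far to the right.

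Against freshly laid embryos, 15 of the 60 list genes were higher and 8 lower in hypoxia (median log2 fold change 0.37, beside 0.027 over all tested genes, of which 20.9% were higher and 19.4% lower), and 22 were higher and 7 lower in normoxia (0.78, beside -0.005 over all tested genes, of which 15.2% were higher and 16.1% lower). Some of these genes had few freshly laid counts, with 0 for ZIC1, 1 for FEZF1, 10 for LMX1A, 10 for GBX2 and 11 for IRX2. Such genes passed the count filter through incubated libraries and could hardly be called lower than freshly laid embryos. The counts of higher calls and the medians are limited by this. IRX2 rose by 4.03 ± 0.59 in hypoxia and by 6.07 ± 0.61 in normoxia. MEIS2 rose by 3.14 ± 0.39 in hypoxia and 3.91 ± 0.40 in normoxia. LMX1A rose in hypoxia (5.10 ± 0.83), where it was 5.78 without freshly laid replicate 2, and in normoxia it was not called (0.73 ± 0.83, edgeR adjusted p = 0.529). ZIC1 was at least 121-fold higher in normoxia, over no freshly laid count. SHH rose by 3.03 ± 0.80 in hypoxia, and by 2.44 without hypoxia replicate 2. FEZF1, a forebrain zinc finger factor, had 1 freshly laid count and was 65.1 times as high in hypoxia by summed counts relative to library size (95% interval 11.3 to 2616). FEZF2, its paralogue, fell in hypoxia (5.54 CPM) and in normoxia (4.22 CPM) against 11.95 CPM in freshly laid embryos. SOX3 had 105 CPM in hypoxia and was not called, and fell in normoxia to 56.4 CPM, against 153 CPM in freshly laid embryos. In normoxia GLI2 rose by 2.61 ± 0.51 and FOXJ1 by 3.08 ± 0.90, and by 3.22 and 4.16 without freshly laid replicate 3. MSX2 rose in normoxia by 2.98 ± 0.71, and by 3.88 without freshly laid replicate 5.

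Markers of other tissues also differed between the groups. Over all tested genes 25.7% were higher and 23.2% lower in hypoxia against normoxia, and the counts of called markers below stand beside these shares. The lists are short, so no excess over these shares is read from them. The 15 surface ectoderm and placode genes found, such as the keratins KRT8 and KRT18, summed to 2919 to 5238 CPM in hypoxia, above 976 to 1454 CPM in normoxia and 1089 to 2082 CPM in freshly laid embryos. None of them was at 0 in a group, and 5 of 15 were higher and 5 lower in hypoxia against normoxia. The 7 epiblast genes summed to 650 to 1405 CPM in hypoxia, 631 to 1080 CPM in normoxia and 2003 to 2341 CPM in freshly laid embryos, with 3 higher and 0 lower in hypoxia against normoxia. The 9 yolk sac genes found summed to 80.6 to 677 CPM in hypoxia, 75.3 to 723 CPM in normoxia and 46.4 to 77.1 CPM in freshly laid embryos, FABP2 having no count in the last. Of the 7 yolk sac genes tested, 1 was higher (GATA4) and 3 lower in hypoxia against normoxia (median log2 fold change -2.87). The lower ones were the fibrinogen chain FGA (3.55 CPM in hypoxia, 62.9 CPM in normoxia), the apolipoprotein APOB (7.31 CPM in hypoxia, 81.6 CPM in normoxia) and FABP2 (0.108 CPM in hypoxia, 2.07 CPM in normoxia). APOA1, which was not called, made up much of the hypoxia sum (185 CPM in hypoxia, 101 CPM in normoxia). The 10 presomitic mesoderm genes summed to 47.7 to 177 CPM in hypoxia, 143 to 236 CPM in normoxia and 17.9 to 29.6 CPM in freshly laid embryos, where MSGN1, UNCX and PAX1 had no count. Of the 8 tested, 0 were higher and 4 lower in hypoxia against normoxia (median log2 fold change -2.03). MSGN1 had 1 count in hypoxia and 2433 in normoxia, and RIPPLY1, TBX6 and RIPPLY2 were the others. DLL1, which was not called, made up much of the sum (104 CPM in hypoxia, 115 CPM in normoxia). The part of tissue makeup or stage in the patterning results was not tested.

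For the 7 patterning genes that averaged at least 1 CPM over all libraries, the most similar tested genes were sought by the root mean square difference of standardised log2 CPM over the 15 libraries, where 0 is an identical pattern. For IRX1 the nearest was its cluster neighbour IRX2 (0.289), then SKOR1 and CERS3. For OTX1 they were PKDCC (0.275), IRX1 (0.372) and CERS3. For OTX2 the nearest was SOX21 (0.316), a SOX factor of neural progenitors, then PTGFR and ISLR2. RAX had the closest matches, PHF1 (0.217), NAPA and CISH, and PAX6 was nearest to TGFBR2 (0.267), MSC and CDR2L. SIX3 was nearest to GATA3 (0.434), CTSL and ADAMTS1. Among the genes named here, IRX1 beside OTX1 is the one case of a patterning gene among the 3 nearest of another. These are descriptions of pattern over 3 groups, and group differences dominate them.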

How the data were processed

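RNA was sequenced from 15 whole-embryo samples, 5 per group. The deposited values are raw read counts per gene, made with STAR and featureCounts per the submitters' processing notes. Per the file headers, featureCounts 1.6.2 counted exons of the RefSeq annotation of rCheMyd1.pri (strand setting 2, minimum mapping quality 10), and marked duplicates stayed in the counts. Libraries followed a standard Illumina protocol, per the labels. Another 3 columns of counts belong to no listed sample and were left aside. A row with no gene name (0.0553 to 0.334% of counts) stayed out of totals and tests.

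The analysis used edgeR 4.0.16 in R 4.3.3 (filterByExpr, TMM, 1 quasi-likelihood fit of a mean per group over all 15 libraries, 12 residual degrees of freedom, common biological coefficient of variation 0.367). P-values were adjusted by Benjamini and Hochberg over 16639 genes. SE is the log2 fold change over the root of F. CPM are TMM-scaled, ± beside CPM is the SD of 5 libraries, and lower limits of a fold use a floor of 3 counts per group, 0.0329 CPM in freshly laid embryos. DESeq2 1.42.0 and limma 3.58.1 served as alternatives. The main edgeR fit was tested on simulated counts. Replicates differed by more than counting noise in every pair, so none was counted as a repeat. No annotated gene overlaps any of the 10. No sequences are printed, since no sequence reference was used here.

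The 10 genes, the lists, the tests and most alternatives were chosen with earlier results of these data known. Besides the 10, named genes are the 3 with the smallest adjusted p of each neural list and comparison, the 3 nearest in pattern to each gene averaging 1 CPM or more, and markers of other tissues. Not every gene so named is described. The genes nearest in pattern to IRX3 are not reported here. SHH, PTCH1, IRX5 and SOX3 in further comparisons and VAX1 were added as partners after their values were seen.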

Additional observations from a re-analysis of the deposited data

Results flagged for a closer look

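Gene levels and the pair ratios gave 37 groups of 5 libraries, examined for a library standing apart from the rest. By Dixon's test 3 held one. Chance gives about 1 in 20 groups for normally distributed values. That rate need not hold for low counts such as those of LHX2 and PAX6, so no excess over chance is read from it. SIX3 had 11.7 CPM in normoxia replicate 3, where the next highest normoxia library had 3.34 CPM. PAX6 had 1.15 CPM in freshly laid replicate 3, where the next had 0.153 CPM. LHX2 had 0.248 CPM in hypoxia replicate 4, where the next had 0.0547 CPM.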

How the results depend on the processing

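No paired analysis was possible because the labels give no replicate number shared between groups, and the numbers used here follow only the order of the samples. The sample titles hold numbers of unstated meaning, and some normoxia numbers lie close together. Whether such embryos share an origin is not known. Leaving out each library in turn gave 3 to 4 genes called for hypoxia against normoxia, 6 to 8 for normoxia against freshly laid and 8 to 9 for hypoxia against freshly laid. RAX, IRX1 and NKX2-2 were called in every such fit of hypoxia against normoxia. With limma-voom, and with only the 10 libraries compared, 2 genes were higher in hypoxia against normoxia, PAX6 joining RAX. With freshly laid embryos, OTX2 was also called higher in hypoxia with DESeq2 (DESeq2 adjusted p = 0.0455) and limma-voom (limma adjusted p = 0.0202). Limma-voom also gave larger log2 fold changes against freshly laid embryos for PAX6 (5.03 in hypoxia and 3.04 in normoxia, the second now called), RAX (4.45 in hypoxia) and OTX2 (2.20 in hypoxia and 2.58 in normoxia). For NKX2-2, which had no freshly laid count, it gave smaller ones than edgeR, both still called. They were 2.83 against 5.16 in hypoxia and 5.46 against 7.63 in normoxia. NKX2-2 and NKX6-1 were filtered out when only the hypoxia and freshly laid libraries were fitted. PAX6 and RAX fall below the filter when only the normoxia and freshly laid libraries are used. RAX thus entered the tests through its hypoxia libraries, where it was high. When normoxia libraries with neighbouring sample numbers were summed, OTX1 in hypoxia against normoxia (edgeR adjusted p = 0.0528) and OTX2 in normoxia against freshly laid (0.0801) were no longer called. That setting left 2987 genes called in normoxia against freshly laid and 19 of the neural list genes. OTX2 was not called there with only the 10 libraries compared either (0.0522).

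The column names carry library numbers of unstated meaning, and using them was chosen after seeing the data. Among the libraries numbered S2 to S11 alone, 2 of the 10 genes were called for hypoxia against normoxia, 1 of them lower, with 4789 genes called over all and 13 of the neural list genes. In normoxia against freshly laid, 1413 genes and 13 of the neural list genes were called there. Among the 10 genes, calls lost there were those of OTX1 (edgeR adjusted p = 0.143) and NKX2-2 (0.0960) in hypoxia against normoxia, OTX1 (0.0681) in hypoxia against freshly laid, and OTX2 (0.223) and NKX6-1 (0.0537) in normoxia against freshly laid. Of the list genes described above other than SOX3 and NKX1-2, IRX2, SHISA2, LHX5, GBX2, FOXJ1 and ZNF521 lost their calls in hypoxia against normoxia (edgeR adjusted p from 0.0775 to 0.181), and FOXJ1 (0.180) and MSX2 (0.0689) theirs in normoxia against freshly laid. Fewer samples entered these fits, and only replicates 2 and 4 were left in normoxia. Signs turned only in changes that were not called. IRX3 in hypoxia against normoxia was -0.014 with total counts only. SIX3 in hypoxia against normoxia ran from -0.57 to 0.45 when a library was left out, the highest without normoxia replicate 3. It was 0.062 with the block of library numbers as a covariate and 0.17 in S2 to S11. NKX6-1 ran from -0.12, without hypoxia replicate 1, to 0.62, and was -0.12 in S2 to S11. The cause was not tested. Low counts limit LHX2, NKX2-2 and NKX6-1, PAX6 and RAX outside hypoxia, and IRX1 and SIX3 in freshly laid embryos.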
